A study of Mus musculus with 12 samples.

Results

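Small intestine of mice with induced loss of Apc was compared with wild-type small intestine by RNA sequencing, across all expressed genes. The members of the comparison are 8 of the 12 libraries of the series, chosen by the genotype and title that the sample labels give: 4 libraries of VilCreER Apcfl/fl intestine (called Apc) and 4 libraries labelled Wild Type (called WT). The other 4 libraries carry floxed Eif3h alleles as well. They took part in the filter on low counts, the scaling of counts and the estimate of the spread between libraries, but were not compared here. In VilCreER mice a tamoxifen-activated Cre recombinase is driven by the villin promoter, which is active in the gut epithelium, so the floxed alleles stay intact in muscle, stroma, vessels, nerves and blood cells. By the treatment text, mice received 2 intraperitoneal tamoxifen injections of 80 mg/kg, 24 hours apart. Each group held 3 males and 1 female. The labels give day 4 for every Apc library and day 7 for every WT library, while the treatment text gives a harvest at 7 days, so genotype and day cannot be told apart. Whether WT mice carried the Cre is not given in the sources used here, nor is the stretch of small intestine that was sampled. The labels do not say that each library is a separate animal, so a p-value here reflects how far these libraries vary, and part of that variation may be technical.

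The lining of the small intestine is renewed from crypts, where stem cells divide next to Paneth cells, and the daughter cells differentiate as they climb the villus to its tip. Wnt ligands keep crypt cells dividing: when Frizzled and LRP receptors are engaged, a complex of Apc, Axin, Gsk3 and casein kinase stops marking beta-catenin for destruction, and beta-catenin joins TCF and LEF factors on DNA. Loss of Apc disables that complex without any ligand, and is the usual first step of intestinal tumours in people and mice.

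Library totals were 13915889 to 14589963 counts in WT and 10483112 to 18621953 in Apc, with Apc replicate 1 the shallowest of the 8. On the first principal component of log2 CPM (counts scaled to library size with TMM factors), which held 60.9% of the variance, the 4 WT libraries lay between -61.4 and -45.4 and the 4 Apc libraries between 36.7 and 63.1. Epithelial markers of the small intestine were present in all 8 libraries, the lowest values being 1445 CPM for Vil1, 939 CPM for Sis and 690.4 CPM for Lct. Bulk RNA holds all cell types of the tissue, so fewer cells of a type and less RNA per cell cannot be told apart in any result below. Values per library are given in the order of replicates 1 to 4, and a change given as a plain number (rose by, fell by or gave) is a log2 fold change of Apc against WT.

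The targeted gene was not lower in the Apc libraries. Apc was at 87.4, 98.3, 97.6 and 93.3 CPM in WT and at 106, 111, 116 and 123 CPM in Apc. The change of 0.28 on the log2 scale (SE 0.09, adjusted p = 0.0177) was lost without WT replicate 1 (adjusted p = 0.0526) or Apc replicate 4 (0.0577). A deleted exon need not lower the count of a whole gene, so these values do not check the label. Axin2, which is transcribed under beta-catenin and whose product helps to destroy it, did separate the groups: WT libraries held 61.4, 80.3, 78.2 and 54.3 CPM and Apc libraries 368, 342, 395 and 326 CPM.

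Of 17394 genes tested, 4820 (27.7%) rose and 4192 (24.1%) fell in Apc against WT at an adjusted p below 0.05 (edgeR's quasi-likelihood test with Benjamini-Hochberg adjustment), 51.8% in all. Scaled by library totals alone, the counts were 6817 and 2393: that scaling moved the median change over all tested genes, on the log2 scale, from -0.00987 to 0.221, and the higher share of all calls from 53.5% to 74%. More than 2-fold changes were called for 1627 genes that rose (9.35%) and 1137 that fell (6.54%). The 4 WT and 4 Apc libraries did not overlap in CPM for 8480 genes (48.8%). Because so many genes are called, the share of a gene list that is called is read here against 27.7% and 24.1%, and its median log2 fold change against -0.00987 for all genes tested.

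**Figure D1:**
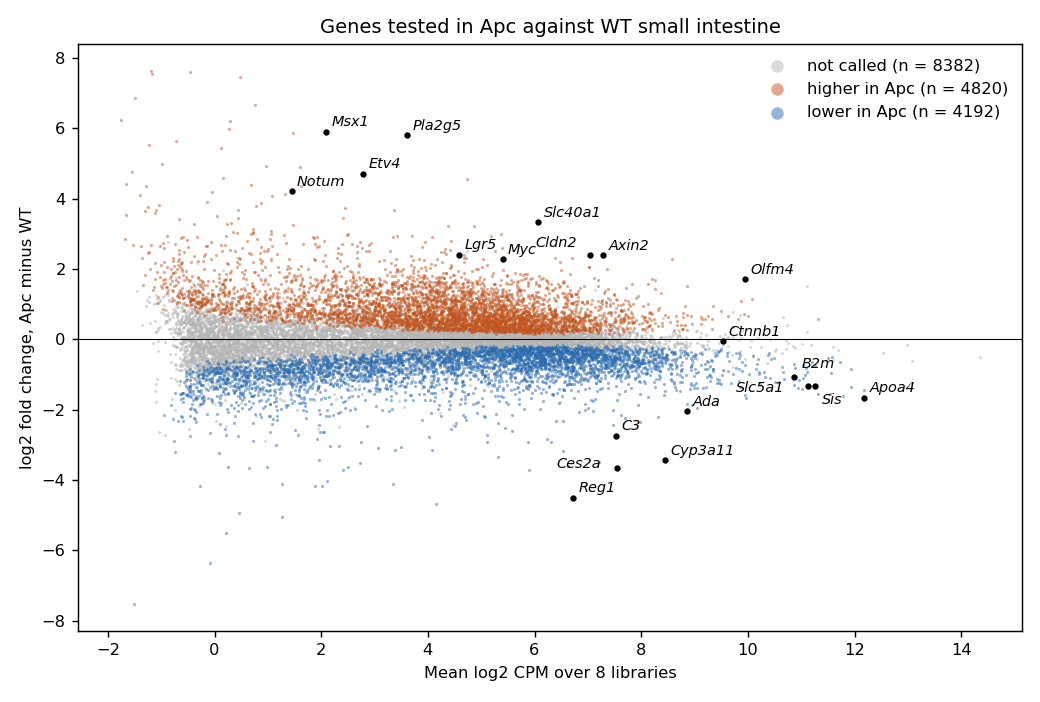
Each point is 1 of 17394 genes tested, with the mean log2 CPM of the 8 libraries on the x axis and the log2 fold change (Apc minus WT) on the y axis, coloured by call. Genes called higher (4820) reach larger changes at low levels, whereas the named genes at the right edge, Apoa4, Sis, Slc5a1 and B2m, fell.

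The smallest p-value belonged to Tubb2b, a beta-tubulin isotype (ENSMUSG00000045136, chromosome 13, 34126748 to 34130466, minus strand, GRCm38). Tubb2b was at 5.89, 6.84, 5.57 and 5.27 CPM in WT and at 35.9, 37.4, 35.2 and 37.6 CPM in Apc. Its Apc libraries lay close together and none overlapped WT, giving a 6.18-fold rise (log2 fold change 2.63, SE 0.12, adjusted p = 2.23e-07). Dyrk3, a kinase that dissolves stress granules and other condensates, came next. Dyrk3 was at 2.09, 1.64, 1.33 and 1.15 CPM in WT and at 17.9, 16.1, 15.1 and 19.2 CPM in Apc (log2 fold change 3.44, SE 0.16, adjusted p = 3.02e-07). Pla2g12a, a secreted phospholipase A2, rose 4.6-fold, from 10.9, 11.5, 14.1 and 11.5 CPM in WT to 56.8, 51.4, 51.5 and 60.6 CPM in Apc (adjusted p = 3.07e-07). Neto2, an auxiliary subunit of kainate receptors, rose by 2.97 on the log2 scale, and Ccdc3, a secreted protein, by 2.21. Arid5b, a DNA-binding chromatin regulator, showed a smaller change with little spread. Arid5b was at 34.3, 29.1, 29.8 and 28.4 CPM in WT and at 70.9, 70.6, 81.1 and 73.6 CPM in Apc (log2 fold change 1.28, SE 0.08, adjusted p = 1.75e-06).

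At a mean log2 CPM of at least 1, and with no overlap between the groups, annotated genes of varied roles followed the 10 highest changes. Piwil2, a germline partner of small RNAs, was at 0.775, 0.57, 0.915 and 1.57 CPM in WT and at 5.7, 5.33, 5.06 and 19.5 CPM in Apc. Its rise (log2 fold change 3.24, SE 0.69, adjusted p = 0.00201) was uneven, since Apc replicate 4 held the highest value, and without that library it was 2.49 (adjusted p = 0.00534). Tgm4, a transglutaminase best known from prostate, was at 1.16, 0.926, 0.582 and 0.165 CPM in WT and at 3.38, 8.1, 5.93 and 6.8 in Apc (log2 fold change 3.08, SE 0.54, adjusted p = 0.000543). H19, an imprinted non-coding RNA of fetal tissues, was at 1.08, 0.285, 0.416 and 1.24 CPM in WT and 5.88, 4.39, 3.05 and 10.7 CPM in Apc (log2 fold change 3.0, SE 0.50, adjusted p = 0.000423). No overlap between the groups was a condition for choosing these 3 genes. Gulo, the enzyme that completes vitamin C synthesis in mice, lay below that mean level and was nearly silent in WT. Gulo was at 0, 0.142, 0 and 0.0824 CPM in WT and at 20.3, 6.17, 9.46 and 11.8 CPM in Apc, with a fitted log2 fold change of 7.47 (adjusted p = 1.8e-06) that depends on counts near 0 in WT and was 8.40 without WT replicate 2.

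There were 3 genes at 0 counts in all 4 WT libraries and at 10 counts or more in every Apc library, and no gene had the reverse pattern. Krt36, a hair keratin, had 22, 22, 16 and 38 counts in Apc, at least 28.7-fold higher than a floor of 3 counts over the WT group. D730048I06Rik, a predicted protein-coding gene, had 19, 30, 47 and 10 counts (at least 31.1-fold higher), and the pseudogene Gm45063 had 11, 26, 14 and 11 (at least 18.2-fold higher).

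Ranked in the same way, the largest falls after the first 10 included several enzymes of detoxification and retinoid metabolism. Ugt1a1, which conjugates bilirubin and drugs, was at 50.1, 57.3, 51 and 55.8 CPM in WT and 2.85, 10.6, 7.13 and 3.37 CPM in Apc (log2 fold change -3.14, SE 0.51, adjusted p = 0.000333). Ces1e, a carboxylesterase, fell 8.8-fold (adjusted p = 0.000316) and Rdh7, a retinol dehydrogenase, 7.63-fold (adjusted p = 0.00112). Rbp7, a cellular retinoid-binding protein, was at 28.4, 19.1, 20.1 and 30.9 CPM in WT and 2.67, 3.71, 3.15 and 1.87 in Apc (log2 fold change -3.10, SE 0.54, adjusted p = 0.000554). Gpr151, an orphan receptor, was at 5.89, 8.76, 5.16 and 6.1 CPM in WT and 0.356, 1.62, 0.435 and 0.623 in Apc, and Paqr9, a membrane receptor of the progestin and adipoQ family, at 15.3, 10.4, 12.5 and 20.2 CPM in WT and 0.267, 2.82, 1.14 and 2.49 CPM in Apc. Gpr151 and Paqr9 had log2 fold changes of -3.01 and -3.02 (adjusted p = 5.13e-05 and 0.000468), and separation of the groups was a condition of this ranking. Without Apc replicate 2 the change of Gpr151 was -3.71.

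Wnt ligand genes moved both ways. Of 10 tested, 5 rose and 4 fell (2 scaled by library totals alone or without Apc replicate 4), with a median log2 fold change of 0.56. Wnt3, the ligand that Paneth cells supply to stem cells, was at 1.94, 2.35, 1.91 and 0.247 CPM in WT and 10.1, 8.88, 11.2 and 9.86 CPM in Apc (log2 fold change 2.61, SE 0.37, adjusted p = 0.000149). Its lowest WT value was in replicate 4, the library that also held the least Lyz1, and without it the change was 2.26 (adjusted p = 0.000156). Wnt11, a ligand of non-canonical signalling, rose by 2.51 (adjusted p = 0.000909), Wnt5b by 1.82 and Wnt9b by 1.79. Wnt4 changed the other way: WT held 23.2, 20.2, 13.8 and 24.6 CPM and Apc 5.7, 10.3, 5.82 and 6.9 CPM (log2 fold change -1.50, SE 0.23, adjusted p = 0.000265). Wnt6 fell by 0.93, and Wnt5a, a mesenchymal ligand, gave -0.05 (adjusted p = 0.745).

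Among R-spondins and Wnt receptors 8 of 17 rose and 7 fell (3 scaled by library totals alone), and their median of -0.22 became 0.007 with that scaling. Rspo1 and Rspo3, stromal ligands that keep Wnt receptors at the cell surface, fell. Rspo3 was at 4.34, 3.63, 3.74 and 4.12 CPM in WT and at 2.4, 2.35, 1.2 and 1.87 CPM in Apc (log2 fold change -1.03, SE 0.21, adjusted p = 0.0015), and Rspo1 fell by 2.12 (adjusted p = 0.000505). Fzd5, the main Frizzled receptor of Paneth cells, was at 141, 149, 171 and 138 CPM in WT and 56.5, 79.4, 83.2 and 63.1 in Apc, with every Apc library below every WT library (log2 fold change -1.08, SE 0.16, adjusted p = 0.000159). Lrp5, a co-receptor, was at 74.8, 89.5, 79.6 and 69.8 CPM in WT and 114, 112, 122 and 128 in Apc (log2 fold change 0.60, SE 0.11, adjusted p = 0.000665). Fzd7, a stem cell receptor, rose by 0.53 and Ror2, a receptor for non-canonical ligands, by 0.95.

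Apart from Axin2, most genes of the destruction complex differed little at the transcript level. Of 17 genes, 6 rose (12 scaled by library totals alone) and 3 fell (1 without Apc replicate 4, and 0 with library totals). Ctnnb1, which encodes beta-catenin, was at 650, 734, 871 and 774 CPM in WT and 695, 721, 751 and 763 CPM in Apc, with a log2 fold change of -0.05 (SE 0.12, adjusted p = 0.76). Gsk3b, the kinase that marks beta-catenin, gave 0.00 (adjusted p = 0.973), although scaling by library totals alone gave a call (0.24, adjusted p = 0.00942). Axin2 rose 5.22-fold (ENSMUSG00000000142, chromosome 11, 108920349 to 108950783, plus strand; log2 fold change 2.38, SE 0.16, adjusted p = 1.81e-06). Dvl2, which relays the signal from Frizzled, rose by 0.61 and Tnks2, a tankyrase that removes Axin, by 0.26.

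TCF and LEF genes differed by member. Lef1 was at 0.387, 0.498, 0.166 and 0.577 CPM in WT and at 5.34, 7, 5.87 and 4.62 CPM in Apc, and the groups did not overlap (log2 fold change 3.78, SE 0.41, adjusted p = 2.71e-05). Tcf7 was at 9.61, 9.61, 6.65 and 8.98 CPM in WT and 50.7, 42.3, 43.7 and 49.3 in Apc (log2 fold change 2.41, SE 0.16, adjusted p = 1.8e-06). Both encode the beta-catenin partners best known from lymphocytes. Tcf7l2, the partner that dominates in gut epithelium, had 54.5, 46.9, 75.4 and 63.8 CPM in WT and 59.7, 49.5, 51.6 and 48.8 CPM in Apc and did not pass the test (-0.20, adjusted p = 0.191), except without WT replicate 2 (-0.30, adjusted p = 0.0372). Over the whole list of factors and coactivators, 11 of 21 rose and 5 fell (2 without WT replicate 3, without Apc replicate 4 or scaled by library totals alone, and 3 without Apc replicate 1). Smarca4, a remodelling ATPase, rose by 0.72, whereas Tle4, a corepressor, fell by 0.78 and Pygo1, a beta-catenin cofactor, by 1.21.

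Inhibitors of the pathway rose more often than they fell. In the list of 18, 9 rose, 2 fell and 7 were not called, with a median of 0.65. Rnf43 was at 44.2, 51.1, 34.5 and 37.7 CPM in WT and at 179.8, 181, 194 and 206 CPM in Apc (log2 fold change 2.18, SE 0.14, adjusted p = 1.55e-06). Rnf43 and its relative Znrf3 are ubiquitin ligases that remove Frizzled from the surface, and Znrf3 was at 9.3, 9.61, 6.99 and 5.77 CPM in WT and 27.9, 25.6, 40.1 and 30.6 in Apc (log2 fold change 1.97, SE 0.19, adjusted p = 1.6e-05). Nkd1, which binds Dishevelled, was at 16.3, 15.2, 14.5 and 14.3 CPM in WT and 51, 68.2, 71.9 and 47.6 in Apc (log2 fold change 1.98, SE 0.25, adjusted p = 5.67e-05). No Apc library overlapped WT for these 3 genes. Notum, an enzyme that strips the lipid from Wnt ligands, was at 0.62, 0.926, 0.582 and 0.247 CPM in WT and 7.84, 14.5, 13.4 and 8.98 CPM in Apc. Those that fell (4 without WT replicate 3) were Dkk2 (-1.08) and Dkk3 (-0.61), secreted antagonists of the Dickkopf family. Dkk3 was at 31.2, 36.6, 31.2 and 39.2 CPM in WT and at 20.2, 24.9, 24.9 and 20.7 CPM in Apc (adjusted p = 0.000469).

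**Figure D2:**
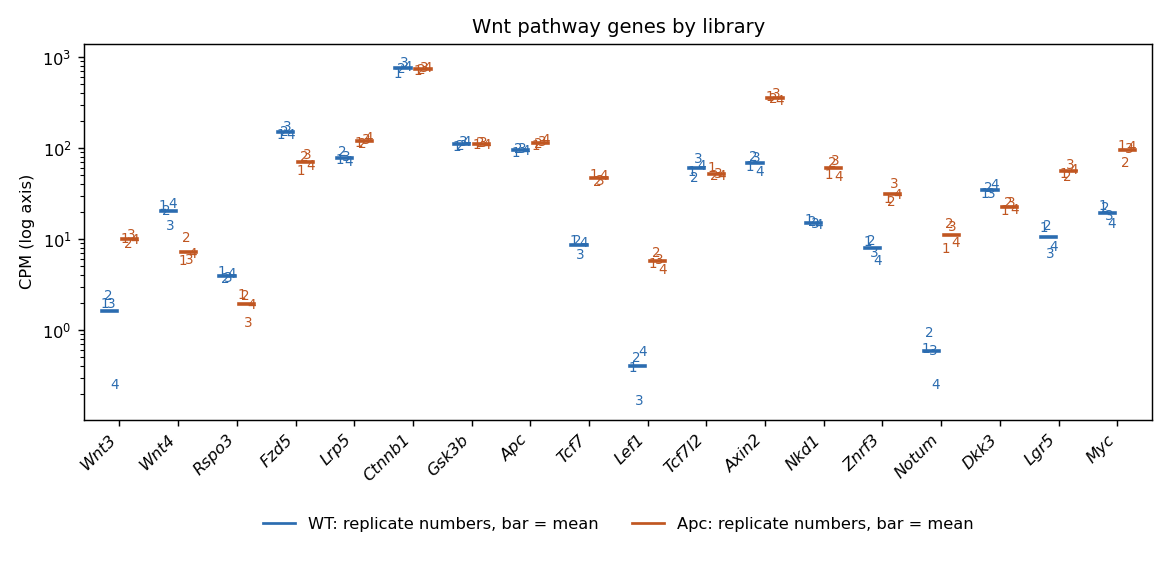
Levels of Wnt pathway genes, with CPM on a log axis, where each digit is 1 library's replicate number (WT blue, Apc orange) and bars are group means. Axin2, Nkd1, Znrf3, Notum, Lef1, Tcf7, Lgr5 and Myc lie higher in every Apc library than in any WT library, Fzd5, Wnt4 and Rspo3 lie lower, and Ctnnb1 and Gsk3b overlap.

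TCF and LEF factors bind DNA at a core written CTTTGA or CTTTGT. The 250 bases before the start (RefSeq, GRCm38.p6) were therefore searched for these letters on both strands. Matches on opposite strands can share 1 base, and a gene with several matches was counted once. Stretches from called genes among the Wnt inhibitors and the 20 highest genes are printed to show what such a match looks like in genes that rose and in 1 that fell. Each runs 5′ to 3′ on the gene's strand, with the core in capitals (TCAAAG and ACAAAG are the same cores read on the other strand). The Pla2g5 stretch (chr4:138863589-138863674, minus strand) begins its core 165 bases before the start, the Lrp8 stretch (chr4:107830856-107830941, plus strand) 57 bases, the Tnfrsf19 stretch (chr14:61038143-61038228, minus strand) 201 bases, the Frzb stretch (chr2:80447446-80447531, minus strand) 95 bases and the Dkk2 stretch (chr3:132085172-132085257, plus strand) 80 bases.
Pla2g5: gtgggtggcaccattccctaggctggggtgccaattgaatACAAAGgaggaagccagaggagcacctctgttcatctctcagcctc
Lrp8: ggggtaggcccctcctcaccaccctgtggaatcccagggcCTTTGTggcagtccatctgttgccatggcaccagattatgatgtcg
Tnfrsf19: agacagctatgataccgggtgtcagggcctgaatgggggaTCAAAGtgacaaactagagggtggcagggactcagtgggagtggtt
Frzb: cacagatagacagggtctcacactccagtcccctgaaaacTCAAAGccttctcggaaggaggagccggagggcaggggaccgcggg
Dkk2: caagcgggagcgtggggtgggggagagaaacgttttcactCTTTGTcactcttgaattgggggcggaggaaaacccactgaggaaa

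Pla2g5, a secreted phospholipase A2, was at 1.55, 1.5, 2.25 and 1.15 CPM in WT and 120, 66.6, 82.7 and 91.9 CPM in Apc. Lrp8, a lipoprotein receptor, was at 2.09, 2.14, 0.915 and 0.824 CPM in WT and 26.5, 13, 20.4 and 21.3 CPM in Apc, and Tnfrsf19, a TNF receptor of crypt base cells also called Troy, at 8.06, 9.9, 6.24 and 3.79 CPM in WT and 69.5, 65.1, 84.3 and 43.2 CPM in Apc. Frzb, a secreted Wnt-binding protein, rose by 0.96 (adjusted p = 0.00999) and Dkk2 fell by 1.08 (adjusted p = 0.00823). Frzb is described here because its promoter was printed, and was chosen after its value was seen. Counted by gene, a core of either form stood before the start in 30.8% of 27025 genes with a promoter entry and 25.9% of the 11707 tested. The share was 25.3% of 3346 genes that rose and 25.5% of 3101 genes that fell. A core stood in 3 of the 13 Wnt inhibitor genes with a promoter entry and in 4 of the 12 highest genes with an entry. These matches are letters in a window and do not show binding.

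Crypt base stem cell markers rose nearly throughout: 23 of 25 rose and 1 fell, with a median of 1.70. Lgr5, the R-spondin receptor that defines these cells, was at 13.3, 13.8, 6.9 and 8.24 CPM in WT and 52, 48.7, 65 and 58 CPM in Apc (log2 fold change 2.40, SE 0.24, adjusted p = 1.7e-05). Ascl2, the transcription factor that maintains their state, was at 5.5, 5.77, 4.16 and 3.46 CPM in WT and 39.1, 36, 29.9 and 39 CPM in Apc (log2 fold change 2.92, SE 0.19, adjusted p = 1.59e-06). Olfm4 was at 712, 681, 495 and 355 CPM in WT and at 1551, 1797, 2069.6 and 1918 CPM in Apc; this secreted glycoprotein rose 3.27-fold (adjusted p = 4.91e-05). The groups did not overlap for these 3 genes. Cdca7, a DNA methylation cofactor, rose 4.15-fold, the RNA-binding protein Msi1 5.96-fold and Smoc2, a matrix protein, 2-fold. The member that fell was Vdr, the vitamin D receptor, which is also expressed along the villus (543, 513, 534 and 516 CPM in WT and 209, 303, 285 and 281 CPM in Apc, log2 fold change -0.96, SE 0.19, adjusted p = 0.00108).

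Markers of reserve or injury-induced stem cells gave a mixed picture. In that list 7 of 11 rose and 0 fell. Mex3a, an RNA-binding protein of slowly cycling crypt cells, was at 2.71, 2.42, 1.41 and 1.32 CPM in WT and 14.1, 13.8, 16.4 and 19.5 in Apc (log2 fold change 3.0, SE 0.25, adjusted p = 7.31e-06). Krt15 rose by 2.44 and Hopx by 1.23 on the log2 scale. Markers of regenerating epithelium did not pass the test: Clu was at 40.8, 19.7, 19.5 and 23.6 CPM in WT and 28, 22.3, 20.5 and 54.6 in Apc (0.28, adjusted p = 0.789), and Ly6a, or Sca-1, gave -0.41 (adjusted p = 0.376).

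Of the crypt progenitor regulators 13 of 18 rose and 1 fell (0 scaled by library totals alone or without any 1 library other than WT replicate 1), with a median of 0.94. Sox9, a transcription factor of stem and Paneth cells, was at 16.7, 17.3, 13.9 and 11.5 CPM in WT and 91.6, 123, 104 and 153 CPM in Apc (log2 fold change 2.99, SE 0.19, adjusted p = 1.55e-06). Cd44, a hyaluronan receptor, rose 4.93-fold from 51.4, 40.5, 30.9 and 29.99 CPM to 205, 139, 178 and 232 CPM (adjusted p = 1.65e-05). Cd24a, a surface protein of crypt cells, was at 139, 138, 116 and 118 CPM in WT and 351, 332, 372 and 345 CPM in Apc, with the Apc libraries within a narrow range (log2 fold change 1.45, SE 0.09, adjusted p = 1.35e-06). Myb, a progenitor transcription factor, rose by 1.05 and Hes1, a Notch target, by 0.57.

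Eph receptors and their ephrin ligands, which sort crypt from villus cells by repulsion, moved both ways. Of 17 tested 6 rose and 6 fell. The crypt receptors Ephb2 and Ephb3 rose: Ephb2 was at 35.7, 37.1, 32.4 and 29 CPM in WT and 111, 91.2, 111 and 126 in Apc (log2 fold change 1.71, SE 0.15, adjusted p = 1.1e-05), and Ephb3 rose 4.96-fold (adjusted p = 4.86e-06). The villus ligand Efnb1 was at 103, 97.8, 134 and 118 CPM in WT and 57.8, 66.4, 66.7 and 57.3 in Apc, without overlap (log2 fold change -0.86, SE 0.11, adjusted p = 8.67e-05), and Efna5 fell by 1.44. Neither class moved as a whole: Efna4 and Efna3, also ligands, rose by 1.67 and 0.87, and the receptors Ephb6 and Epha7 fell by 1.54 and 0.85, the last not called without any 1 of WT replicate 3 and Apc replicates 1 and 4 or scaled by library totals alone. Efna3, Ephb6 and Epha7 were chosen after their values were seen.

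Myc and Mycl rose while most of their partners and antagonists did not. Myc was at 23.3, 22, 17.9 and 14.5 CPM in WT and at 107, 68.6, 98.8 and 103 CPM in Apc. The lowest Apc value, in replicate 2, was above the highest WT value (log2 fold change 2.27, SE 0.21, adjusted p = 1.11e-05). Mycl rose 6-fold (adjusted p = 1.4e-05), and Mycn had -0.30 (adjusted p = 0.254). Max, the obligate partner of Myc, was at 266, 243, 321 and 372 CPM in WT and 164, 193, 174 and 171 in Apc (log2 fold change -0.77, SE 0.13, adjusted p = 0.000526). Mxd1, which competes for Max in differentiating cells, fell by 1.37 (adjusted p = 0.000155). In all 4 of the 14 network genes rose and 7 fell, with a median of -0.27.

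Genes of DNA replication and mitosis rose as nearly whole lists: 38 of 39 replication genes and 37 of 37 mitosis genes rose and 0 and 0 fell, with medians of 1.38 and 1.33. Mcm2, a helicase subunit, was at 30.1, 35.7, 28.7 and 22.3 CPM in WT and 123, 86.2, 91.5 and 118 in Apc (log2 fold change 1.84, SE 0.16, adjusted p = 1.02e-05). Mki67 was at 114, 94.1, 75.6 and 64.2 CPM in WT and at 183, 148, 184 and 184 CPM in Apc; the gene marks cycling cells (log2 fold change 1.01, SE 0.16, adjusted p = 0.000259). Ccnb1, the mitotic cyclin, was at 8.83, 7.69, 7.9 and 8.65 CPM in WT and 30.4, 22.5, 27 and 31.8 CPM in Apc (log2 fold change 1.75, SE 0.13, adjusted p = 4.11e-06). Ect2, needed for cytokinesis, rose 4.12-fold. Apc libraries did not overlap WT for these 4 genes, and Apc replicate 2 held the lowest Apc value of each.

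The G1 regulators moved both ways. Of 23, 11 rose and 8 fell (4 scaled by library totals alone). Ccnd1, a cyclin that opens G1, was at 40.4, 41, 26.8 and 27.2 CPM in WT and 130.2, 82.2, 96.9 and 112 in Apc (log2 fold change 1.64, SE 0.24, adjusted p = 0.000196), Ccne1 rose 3.85-fold and Cdk4 2.57-fold. Cdkn2b, an inhibitor of Cdk4 and Cdk6, was at 72.1, 76.9, 119 and 72 CPM in WT and 19.6, 32, 34 and 13.3 in Apc (log2 fold change -1.78, SE 0.30, adjusted p = 0.000473). Cdkn1a, or p21, fell by 0.58 (adjusted p = 0.00213), and Rb1, which restrains E2F factors, by 0.71 (adjusted p = 0.000377). Activating and restraining factors were found on both sides: E2f2, an activating E2F factor, fell by 0.53 (adjusted p = 0.00329) and E2f7, a repressor, rose by 1.40 (adjusted p = 0.000654), both chosen after their values were seen.

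Ribosome biogenesis and RNA polymerase I genes rose in 45 of 45 cases, with a median of 1.50. Ncl was at 309, 282, 254 and 261 CPM in WT and at 959, 676, 679.8 and 853 CPM in Apc (log2 fold change 1.52, SE 0.18, adjusted p = 3.91e-05); nucleolin acts in rRNA processing. Polr1a, the largest subunit of RNA polymerase I, was at 21.5, 18.3, 12.9 and 13.6 CPM in WT and 59.8, 41.7, 46.3 and 54.2 in Apc (log2 fold change 1.61, SE 0.20, adjusted p = 7.05e-05), and Fbl, which methylates rRNA, rose 2.98-fold. Ribosomal protein genes rose less: 46 of 47 of the large subunit and 29 of 33 of the small subunit rose, with medians of 0.63 and 0.61. Their counts can be split with near-identical pseudogenes. Rps2 was at 152, 124, 143 and 143 CPM in WT and at 329, 288, 269 and 337 CPM in Apc (log2 fold change 1.12, SE 0.13, adjusted p = 3.25e-05). Among aminoacyl-tRNA synthetases 29 of 37 rose and 0 fell (median 0.69), led by Gars, which charges glycine, at 79.9, 80.3, 95.2 and 91.2 CPM in WT and 259, 238, 239.9 and 252 CPM in Apc (log2 fold change 1.51, SE 0.09, adjusted p = 1.35e-06).

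Enzymes that make nucleotides, serine and one-carbon units rose in most cases. Purine and pyrimidine synthesis had 19 of 25 genes that rose and 0 that fell (median 1.17), among them Cad, which starts pyrimidine synthesis, at 25.6, 23.1, 14.6 and 15.2 CPM in WT and 91, 60.3, 64.2 and 75.5 in Apc (log2 fold change 1.89, SE 0.26, adjusted p = 0.000114), and Ppat, which commits purine synthesis (3.67-fold). In the serine and one-carbon list 12 of 17 rose and 2 fell (1 scaled by library totals alone or without any 1 of WT replicates 2, 3 and 4 and Apc replicates 2 and 4; median 1.21). Phgdh, the first enzyme of serine synthesis, was at 5.42, 3.85, 3.16 and 3.13 CPM in WT and 40.4, 22.9, 25 and 31.9 CPM in Apc (log2 fold change 2.94, SE 0.26, adjusted p = 1.02e-05). Psat1, the next enzyme, rose 5.86-fold and Shmt2, which splits serine in mitochondria, 3.72-fold. Sfxn1, the mitochondrial serine carrier, went the other way, from 304, 305, 339 and 328 CPM to 163, 219, 182 and 162 CPM (log2 fold change -0.81, SE 0.13, adjusted p = 0.000284).

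Of 11 amino acid transporters linked to growth 7 rose and 1 fell. Slc7a5, which imports leucine, was at 9.76, 7.69, 8.65 and 7.33 CPM in WT and 55.3, 37.5, 42.8 and 52.7 CPM in Apc (log2 fold change 2.49, SE 0.21, adjusted p = 7.8e-06), while Slc3a2, the chain it pairs with, was at 311, 341, 410.2 and 380.3 CPM in WT and 177, 266, 217 and 159.7 CPM in Apc (log2 fold change -0.81, SE 0.16, adjusted p = 0.00143). Slc1a4, a neutral amino acid carrier, rose 4.81-fold. Polyamine genes had 10 of 20 that rose and 5 that fell (3 scaled by library totals alone). Srm, spermidine synthase, rose 4.17-fold (adjusted p = 4.26e-05), Odc1, which makes putrescine, by 0.71 on the log2 scale, and Arg2, a mitochondrial arginase, fell by 1.88 (adjusted p = 0.000319).

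Glycolysis genes did not move as a block: 4 of 20 rose (8 scaled by library totals alone) and 7 fell (3 with it), and the median of -0.14 became 0.09 under that scaling. Hk2, a hexokinase of proliferating cells, was at 22.6, 23.1, 26.2 and 22.4 CPM in WT and 62.3, 39.8, 51.3 and 53.4 in Apc (log2 fold change 1.13, SE 0.20, adjusted p = 0.000554). Ldhb, a lactate dehydrogenase chain, fell by 1.08 (adjusted p = 0.000498) and Pfkp, a phosphofructokinase, by 0.66.

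In the EGF family, 5 of 14 ligand, receptor and feedback genes rose and 5 fell. Among ligands Ereg, Areg, Btc and Tgfa rose, whereas Egf, Hbegf, Nrg1 and Nrg4 (named after their values were seen) were not called, except Hbegf without WT replicate 1 (-0.49, adjusted p = 0.0393) and Nrg1 without WT replicate 2 (0.64, adjusted p = 0.0303). Ereg was at 8.14, 10.3, 6.65 and 4.28 CPM in WT and 26.2, 25.7, 30.4 and 37.6 CPM in Apc (log2 fold change 2.02, SE 0.27, adjusted p = 9.5e-05), Areg rose 3.69-fold and Btc 3.07-fold. The 3 receptor genes tested fell: Egfr was at 36, 30.3, 43.3 and 35.3 CPM in WT and at 24.9, 22.3, 25.6 and 24.6 CPM in Apc (log2 fold change -0.57, SE 0.11, adjusted p = 0.00112), Erbb3 fell by 1.03 and Erbb2 by 0.65. Lrig1, a crypt protein that degrades these receptors, rose by 1.31 (adjusted p = 6.32e-06). The feedback genes moved both ways, since Lrig3 and Errfi1 fell, the call of Errfi1 being lost in 10 of the alternative fits described below.

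Of 19 FGF and MAPK feedback genes 7 rose and 4 fell (2 without Apc replicate 4 or scaled by library totals alone). Fgfr4 rose 6.65-fold, from 3.25, 3.77, 2.74 and 1.89 CPM in WT to 20.8, 18.1, 17.6 and 21.8 CPM in Apc (adjusted p = 2.17e-05). The ETS factors diverged: Etv4 was at 1.16, 1.5, 1.33 and 1.24 CPM in WT and 40.9, 23.7, 30.3 and 42.9 CPM in Apc, Etv5 rose by 1.67 and Etv1 fell by 1.06. Among MAPK phosphatases Dusp4 rose by 1.91 and Dusp5 fell by 0.84.

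BMP ligands hold back crypt growth from the villus side. Of 23 BMP genes 5 rose (3 without WT replicate 1 or Apc replicate 2, and 9 scaled by library totals alone) and 5 fell (3 with that scaling). The share was 21.7% each way, below the 27.7% and 24.1% of all genes tested. Msx1, a homeobox factor that BMP signalling induces in many tissues, was at 0.31, 0.712, 0.915 and 0.165 CPM in WT and 26.4, 32.5, 36.6 and 31.9 CPM in Apc. Bmp7, an epithelial ligand, rose 2.92-fold, and Bmp2, a ligand of the villus, was at 17.7, 18.8, 34.5 and 18.6 CPM in WT and 9.88, 11.5, 12.9 and 9.24 CPM in Apc (log2 fold change -1.04, SE 0.21, adjusted p = 0.00157). Chrdl1, a secreted BMP antagonist of stroma, fell by 1.20, and Bmp4 gave -0.01 (adjusted p = 0.956).

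Notch signalling decides between absorptive and secretory fates. In its list of 22, 7 rose and 4 fell (1 scaled by library totals alone, and 2 without any 1 of WT replicates 1, 2 and 4 and Apc replicates 2 and 4). Jag2, a ligand, was at 6.9, 6.76, 4.82 and 4.37 CPM in WT and 20.3, 14.4, 18.4 and 18.6 in Apc (log2 fold change 1.64, SE 0.24, adjusted p = 0.000156), Notch1 rose by 0.91 and Lfng, which modifies the receptor, by 1.23. Dll1, the ligand of secretory precursors, fell by 0.59 (adjusted p = 0.000484). Atoh1, the factor that commits cells to secretory fates, was at 11.7, 11.5, 16.1 and 15.2 CPM in WT and 16.1, 12.8, 16.1 and 11.1 CPM in Apc, overlapping (0.04, adjusted p = 0.881), whereas Neurog3, the endocrine precursor factor, rose 3.01-fold (adjusted p = 9.15e-05).

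Among YAP-linked and fetal-like genes 10 of 20 rose and 4 fell (1 without Apc replicate 3, and 2 without WT replicate 3 or scaled by library totals alone). Ccn2 and Ccn1, matrix proteins that YAP induces, rose by 1.19 and 1.45 (adjusted p = 0.00255 and 1.6e-05). Krt7, a keratin of simple ducts, rose by 1.40. Egr1, an early growth response factor counted below with the immediate early genes, was at 13.8, 9.76, 18.7 and 7.74 CPM in WT and 64.8, 34.8, 50.7 and 43.7 CPM in Apc (log2 fold change 1.95, SE 0.25, adjusted p = 7.24e-05). Fos gave 0.23 (adjusted p = 0.496) and Jun 0.00 (adjusted p = 0.994).

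Transcription factors of intestinal identity fell more often than they rose: 14 of 31 fell (8 scaled by library totals alone) and 4 rose. The master factor Cdx2 was at 187, 205, 271 and 238 CPM in WT and 174, 188, 194 and 162 CPM in Apc (-0.33, adjusted p = 0.0605) but was called without WT replicate 1 (-0.41, adjusted p = 0.0285), in a fit of the 8 libraries alone (adjusted p = 0.0497) and with the replicate number as a block (adjusted p = 0.0398). Hnf4a was at 589, 679, 776 and 737 CPM in WT and at 768, 694, 762 and 725 CPM in Apc (0.08, adjusted p = 0.594, and 0.0292 with library totals). Creb3l3, a factor that drives apolipoprotein genes, fell by 1.08 (adjusted p = 0.00158) and Klf5, a factor of both crypt and villus, by 0.49. The 3 Foxa genes tested, which open chromatin in gut endoderm, rose: Foxa1 was at 8.29, 7.69, 10.4 and 6.84 CPM in WT and 28.1, 22.5, 25.6 and 39.4 CPM in Apc (log2 fold change 1.80, SE 0.22, adjusted p = 5.33e-05), Foxa2 rose by 1.25 and Foxa3 by 1.46. Ehf, an ETS factor of epithelia, rose 3.63-fold.

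**Figure D3:**
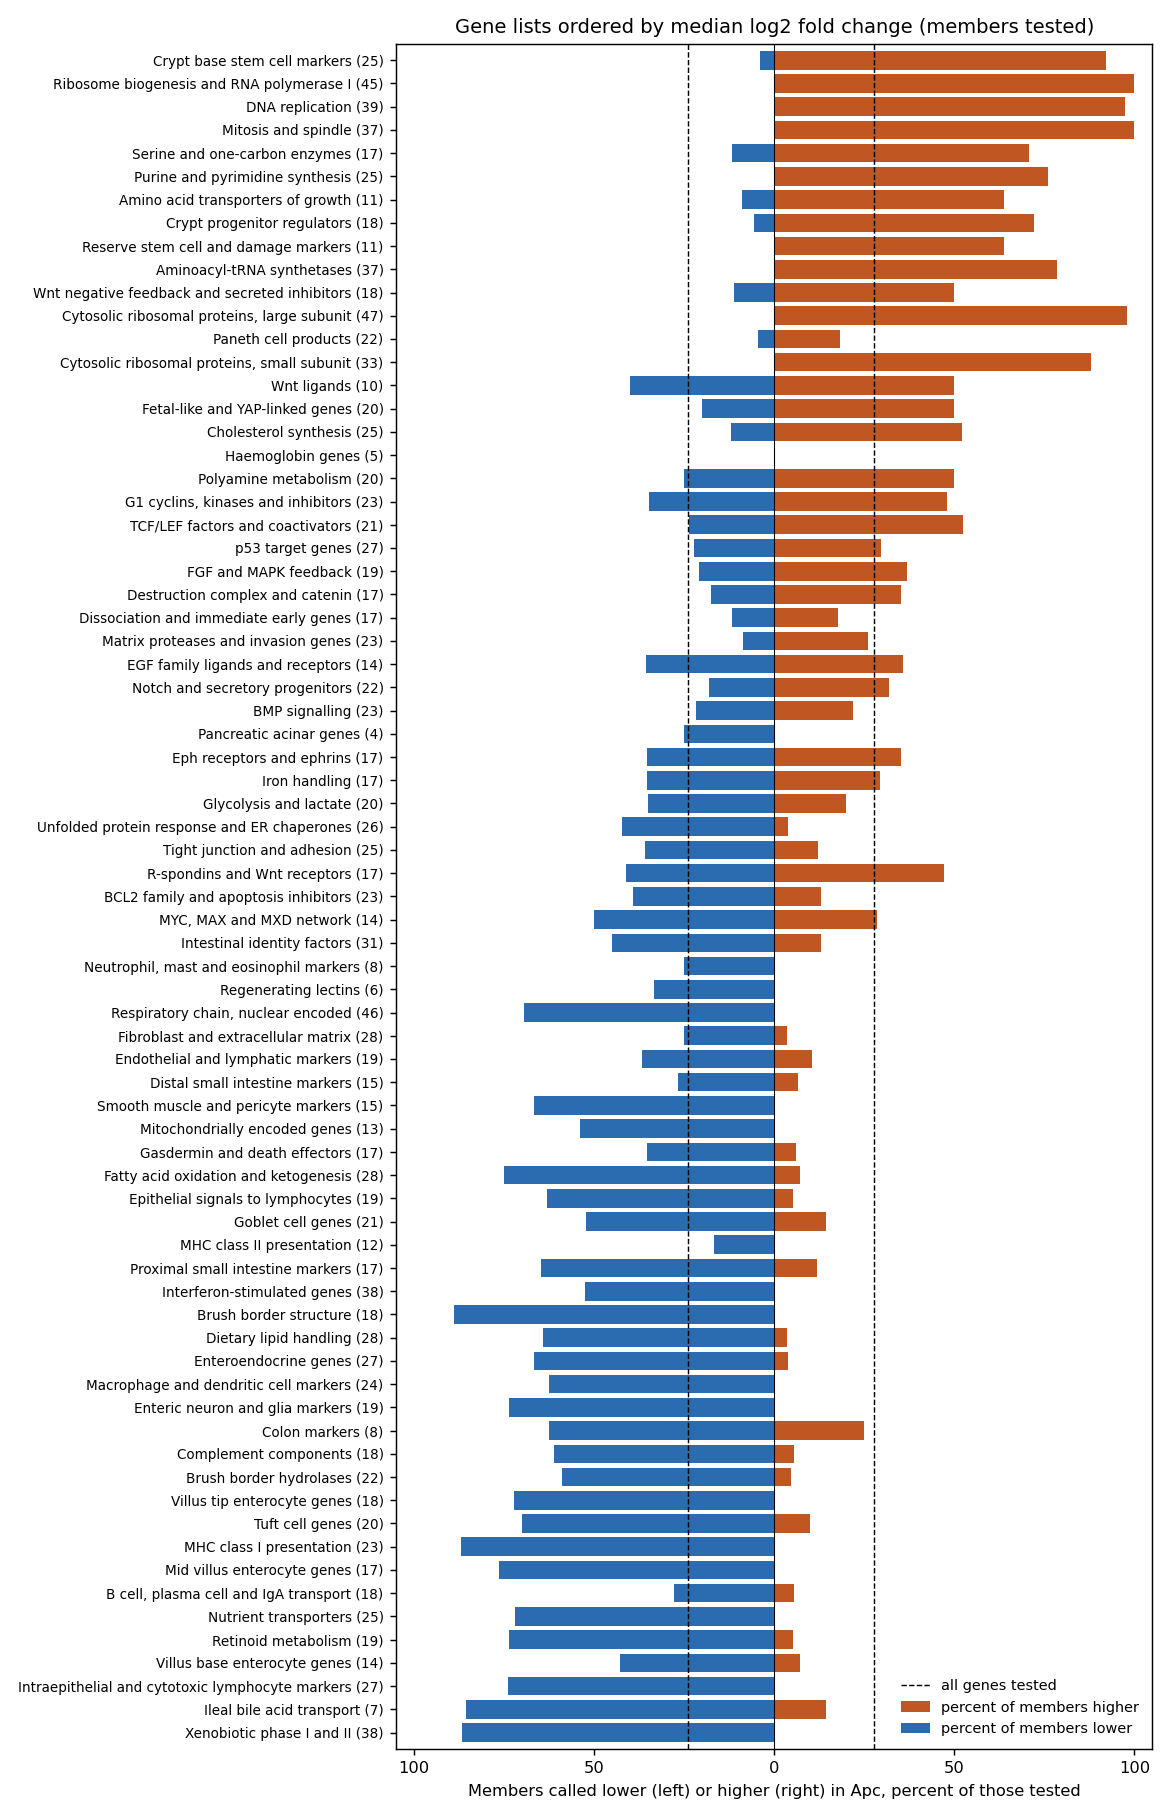
Bars give the percent of each list's tested members called higher (right, orange) or lower (left, blue) in Apc, lists being ordered by median log2 fold change, and dashed lines mark 27.7% and 24.1% of all genes tested. Stem cell, biogenesis and cell cycle lists stand at the top, and xenobiotic, bile acid and lymphocyte lists at the bottom.

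Enterocyte genes fell more often than they rose in all 3 zones of the villus, although the villus base list was uneven among libraries. The summed level of that list was 4806 to 9262 CPM in WT and 2763 to 19572 CPM in Apc, overlapping. Of 14 villus base genes 6 fell and 1 rose (2 without Apc replicate 2 or 4; median -1.22), of 17 mid villus genes 13 fell and 0 rose (median -0.94), and of 18 villus tip genes 13 fell and 0 rose (median -0.84). Ada, which breaks down adenosine at the tip, was at 591, 638, 1143 and 1678 CPM in WT and 207, 205, 192 and 379 CPM in Apc (log2 fold change -2.04, SE 0.34, adjusted p = 0.000406). Nt5e, which makes adenosine from AMP, varied more among WT libraries: it was at 19.7, 34, 109.7 and 81.1 CPM in WT and 8.73, 18.7, 9.63 and 17.2 CPM in Apc (log2 fold change -2.16, SE 0.47, adjusted p = 0.00237), and at -1.72 without WT replicate 3 (adjusted p = 0.00786). Apoa4 was at 6490.1, 7257, 9423 and 10308 CPM in WT and at 2122, 3440.4, 2324 and 2752 CPM in Apc (log2 fold change -1.65, SE 0.30, adjusted p = 0.000719). Ccl25, a chemokine of the villus base, fell 2.79-fold (adjusted p = 0.000516). Pla2g2a, a secreted phospholipase of Paneth cells, was the villus base member that rose, by 2.93 (adjusted p = 0.000141).

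Brush border genes fell with the enterocyte zones. In the structure list 16 of 18 fell and 0 rose (median -0.74). Vil1 was at 2284, 2575, 2936 and 3074 CPM in WT and at 1445, 1949.7, 1652 and 1526 CPM in Apc; villin bundles the actin of microvilli, and the groups did not overlap (log2 fold change -0.73, SE 0.19, adjusted p = 0.00603). Myo1a, the motor that ties actin to the membrane, fell by 0.92, and Clic5 by 1.13. Of 22 brush border hydrolases 13 fell and 1 rose (0 without any 1 of WT replicates 2 and 3 and Apc replicate 4). Sis, which splits sucrose, was at 3925, 3921, 3628 and 4409.6 CPM in WT and 939, 2325, 1804 and 1312 CPM in Apc (log2 fold change -1.32, SE 0.30, adjusted p = 0.00285), Lct, lactase, fell by 1.12 and Treh, trehalase, by 1.18. Alpi, the intestinal alkaline phosphatase, did not pass the test. Alpi was at 1275, 1108, 1143 and 1448 CPM in WT and at 575, 829, 559.9 and 1431 CPM in Apc, with Apc replicate 4 above 3 of the WT libraries. Without that library its log2 fold change was -0.93 (adjusted p = 0.0164), against -0.55 (adjusted p = 0.157) with it.

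Nutrient carriers fell in 18 of 25 cases and rose in 0 (median -1.0). Slc5a1 was at 3134, 3399, 3378 and 4476 CPM in WT and at 1073, 1767, 1599 and 1281 CPM in Apc; SGLT1 absorbs glucose with sodium (log2 fold change -1.33, SE 0.27, adjusted p = 0.00132). Slc15a1, the peptide carrier, fell by 0.98, Slc2a5, the fructose carrier, by 1.23 and Slc1a1, a glutamate carrier, by 1.57. Slc28a1, a nucleoside carrier, fell 4.34-fold (adjusted p = 0.000189). Slc6a19, which absorbs neutral amino acids, was at 527, 731, 742 and 938 CPM in WT and 847, 752, 918 and 722 CPM in Apc, overlapping (0.14, adjusted p = 0.512).

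Fat handling fell at several steps. Of 28 dietary lipid genes 18 fell and 1 rose (median -0.75). Mttp, which loads lipid onto apolipoprotein B, was at 2487, 2557, 3551 and 3208 CPM in WT and 1025, 1453, 1190.1 and 1154 CPM in Apc (log2 fold change -1.29, SE 0.20, adjusted p = 0.000275), Apoc3 fell 3.64-fold, Cd36, a fatty acid receptor, by 1.10 and Dgat1, which makes triglyceride, by 1.16. Acsl3, an acyl-CoA synthetase, was the member that rose (0.90, adjusted p = 0.00581). Fatty acid oxidation and ketogenesis had 21 of 28 that fell and 2 that rose. Acadm was at 177, 181, 226 and 199.9 CPM in WT and at 101, 123, 112 and 99.4 CPM in Apc (log2 fold change -0.85, SE 0.13, adjusted p = 0.00025), and Acot1, an acyl-CoA thioesterase, rose by 1.44 (adjusted p = 0.000523). Nuclear genes of the respiratory chain had 32 of 46 that fell (12 scaled by library totals alone) and 0 that rose, with a median of -0.37 and the largest changes in Ndufa1 (-0.76) and Sdhb (-0.68). Of 13 mitochondrially encoded genes 7 fell and 0 rose, among them mt-Co3 (-0.61, adjusted p = 0.00225).

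Retinoid enzymes, which turn dietary vitamin A into storage esters and signals, fell in 14 of 19 cases and rose in 1 (median -1.15). Aldh1a1, which makes retinoic acid, was at 438, 500.5, 470.1 and 475 CPM in WT and 82.4, 179, 74.5 and 60.7 CPM in Apc (log2 fold change -2.25, SE 0.34, adjusted p = 0.000232). Rbp2 was at 2679.7, 2587, 3657 and 3433 CPM in WT and at 1203, 2156, 1291 and 1859 CPM in Apc; this protein carries retinol in enterocytes (log2 fold change -0.92, SE 0.24, adjusted p = 0.00654). Lrat, which makes retinyl esters, fell by 1.28. The member that rose was Rdh1, a retinol dehydrogenase, at 0.465, 0.427, 0.416 and 0.33 CPM in WT and 2.58, 4.02, 4.51 and 2.34 CPM in Apc (log2 fold change 3.03, SE 0.39, adjusted p = 7.82e-05).

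The list with the lowest median of all was xenobiotic metabolism: 33 of 38 genes fell and 0 rose, with a median of -1.66. Cyp3a11, a drug-oxidising enzyme, was at 1617, 1229.8, 1068 and 1198 CPM in WT and 27.2, 180.3, 110.1 and 156 CPM in Apc. Gsta1, a glutathione transferase, was at 76.6, 63.7, 32.9 and 46.4 CPM in WT and 6.14, 15.3, 9.14 and 6.69 CPM in Apc (log2 fold change -2.55, SE 0.59, adjusted p = 0.00347), and Sult1d1, a sulfotransferase, fell 4.41-fold (adjusted p = 0.000159). Abcg2, a drug exporter, fell by 1.15 (adjusted p = 0.000225). Every Apc library lay below every WT library for these genes, and Apc replicate 1, the shallowest library and a female one, was the lowest for Cyp3a11. The mean of the list's log2 CPM, centred per gene on the 8 libraries, was -1.66 in Apc replicate 1, -0.33 in replicate 2, -0.91 in replicate 3 and -0.72 in replicate 4, against 0.677 to 1.2 in WT.

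Bile acid genes fell apart from 1 importer. Slc51a and Slc51b, the subunits of the exporter to blood, fell by 1.46 and 1.99 (adjusted p = 0.000151 and 5.43e-05). Their inducer Nr1h4, the bile acid receptor FXR, was at 43.5, 34.8, 46.1 and 40.5 CPM in WT and 19.1, 17.9, 23.8 and 15.1 in Apc (log2 fold change -1.12, SE 0.17, adjusted p = 0.000198), and Nr0b2, a repressor that FXR induces, fell by 1.79. Slc10a2, the ileal importer at the lumen, was low in both groups: WT held 0.465, 0.855, 0.582 and 0.577 CPM and Apc 3.92, 3.87, 3.37 and 2.59 CPM (log2 fold change 2.43, SE 0.63, adjusted p = 0.00658). In the whole list 6 of 7 fell and 1 rose.

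Several iron genes were far higher in 1 Apc library than in the others. Slc40a1, ferroportin, which exports iron to blood, was at 29.1, 21.6, 15.9 and 24.2 CPM in WT and 201, 167, 119.6 and 426 CPM in Apc (log2 fold change 3.33, SE 0.46, adjusted p = 0.000125). Cybrd1, which reduces dietary iron at the lumen, was at 4.88, 7.05, 5.99 and 8.65 CPM in WT and 62.9, 96, 51.8 and 418 CPM in Apc. Apc replicate 4 was highest for both, and without it the log2 fold changes were 2.84 and 3.40 (adjusted p = 0.00027 and 0.000275). Slc11a2, which imports iron at the lumen, split by library: WT held 91.1, 70.6, 102 and 97.5 CPM and Apc 57.4, 51.8, 51.1 and 357 CPM. Its change did not pass the test (0.52, adjusted p = 0.443), and without Apc replicate 4 it was -0.76 (adjusted p = 0.00885), so that the other 3 Apc libraries were below WT. Slc39a14, another metal importer, rose by 1.33 (adjusted p = 0.00143) and Slc25a37, the mitochondrial iron importer, fell by 1.25. Tfrc, the transferrin receptor, gave 0.12 (adjusted p = 0.5). Of 17 iron genes 5 rose and 6 fell (2 scaled by library totals alone, and 3 without WT replicate 1 or Apc replicate 3), and the median of -0.12 turned to 0.12 with library totals and 0.06 without WT replicate 1.

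Cholesterol synthesis leaned upward: 13 of 25 rose (21 scaled by library totals alone) and 3 fell (1 with it), with a median of 0.39. Fdps, which makes farnesyl diphosphate, was at 7.36, 8.33, 9.57 and 9.56 CPM in WT and 15.3, 15.2, 16.3 and 17.4 CPM in Apc (log2 fold change 0.89, SE 0.11, adjusted p = 6.2e-05). Srebf2, the factor that turns on the pathway, rose by 0.69 and Lss, which closes the sterol rings, by 0.80 (adjusted p = 0.000144 and 4.74e-05).

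Claudins of the tight junction changed selectively. Cldn2, which forms sodium pores and is a crypt claudin, was at 68.3, 64, 51.6 and 48.7 CPM in WT and 373, 196, 283 and 382 CPM in Apc, without overlap (log2 fold change 2.41, SE 0.21, adjusted p = 1.02e-05). Cldn15, a cation pore of the villus, was at 815, 774, 787 and 958 CPM in WT and 284, 390, 345 and 258 CPM in Apc (log2 fold change -1.38, SE 0.23, adjusted p = 0.000406), and Cldn3 fell by 0.58. Cdh1, E-cadherin, was at 672, 705, 950.1 and 771 CPM in WT and 779, 772, 823 and 859 CPM in Apc (0.06, adjusted p = 0.718, and 0.0392 scaled by library totals alone). Of 25 junction genes 3 rose (1 without any 1 of WT replicates 1 and 4 and Apc replicates 1 and 3, and 8 scaled by library totals alone) and 9 fell (5 without WT replicate 3 or Apc replicate 4, and 4 with library totals), and the median of -0.20 became 0.038 with library totals. Among matrix proteases 6 of 23 rose and 2 fell (1 without WT replicate 2 or Apc replicate 1 or scaled by library totals alone, and 4 without WT replicate 3). The share that rose, 26.1%, was near the 27.7% of all genes tested, and 8.7% fell against 24.1%. Mmp3, stromelysin, rose by 1.88 and Plat, tissue plasminogen activator, by 1.11.

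Most Paneth cell genes did not pass the test. Of 22 tested 4 rose and 1 fell (2 without WT replicate 3 or from the 8 libraries alone), and most of the others are defensins and similar products whose near-identical copies can share reads. Mmp7, which activates defensins, was at 53.4, 85.5, 49.9 and 15.8 CPM in WT and 289, 196, 307 and 219.6 CPM in Apc (log2 fold change 2.30, SE 0.53, adjusted p = 0.00325). Lyz1 was at 1371, 2491, 1792 and 319 CPM in WT and at 1717, 2346, 3304 and 1820.4 CPM in Apc (0.62, adjusted p = 0.408); lysozyme is the classical Paneth product, and WT replicate 4 held the least of it. Pla2g2a, Habp2 and Sox9 were the others that rose. Guca2b, uroguanylin, which is also made by villus cells, fell by 1.0.

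Genes of the other secretory lineages fell more often than they rose. For goblet cells 11 of 21 fell and 3 rose (median -0.70); Muc2, the main gel-forming mucin, was at 925, 1255, 1619 and 1389 CPM in WT and 631, 637, 584 and 351 CPM in Apc (log2 fold change -1.24, SE 0.24, adjusted p = 0.0012), Tff3 fell by 1.07 and Clca1 by 1.41. The goblet members that rose were Muc4 (0.76), Galnt12 (0.54) and Foxa3. For enteroendocrine cells 18 of 27 fell (11 scaled by library totals alone) and 1 rose (median -0.77). Gip, the incretin of K cells, was at 105, 82.5, 89.3 and 106 CPM in WT and 28.5, 42.1, 24 and 22.6 CPM in Apc (log2 fold change -1.71, SE 0.22, adjusted p = 7.54e-05), Gcg fell by 1.33, and Neurog3 was the member that rose. For tuft cells 14 of 20 fell (8 with library totals) and 2 rose (median -0.91). Dclk1 was at 19.7, 18.9, 16.8 and 16.9 CPM in WT and 5.61, 11.4, 8.76 and 7.94 CPM in Apc (log2 fold change -1.09, SE 0.27, adjusted p = 0.00548), Trpm5, their cation channel, fell by 1.06, and the members that rose, Ascl2 and Cd24a, are also crypt genes.

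Unfolded protein response genes had 11 of 26 that fell (6 scaled by library totals alone) and 1 that rose (3 with library totals or without WT replicate 1, and 0 without any other 1 library), and the median of -0.19 became 0.05 with library totals. Xbp1, the factor that expands the secretory apparatus, fell by 0.61 (adjusted p = 0.00116), whereas Hspa5, the main ER chaperone, gave -0.15 (adjusted p = 0.42). In the p53 target list 8 of 27 rose (13 with library totals) and 6 fell. These shares, 29.6% and 22.2%, were near the 27.7% and 24.1% of all genes tested. Gdf15, a stress hormone, rose 4.11-fold and Trp53 itself by 1.01. Fas, a death receptor, fell by 1.53 and Mdm2 gave -0.16 (adjusted p = 0.0937, and 0.0487 without Apc replicate 4). Of 23 BCL2 family and inhibitor genes 9 fell and 3 rose (5 and 5 with library totals). Bmf, which promotes death, fell by 1.44 and Bcl2l1, which prevents it, by 0.54. Among gasdermins and death effectors 6 of 17 fell and 1 rose. Casp1 was at 229.7, 208, 255 and 226 CPM in WT and at 97, 119.9, 113 and 70.8 CPM in Apc (log2 fold change -1.20, SE 0.22, adjusted p = 0.000842), and Gsdmd, the pore that it opens, fell by 0.73.

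MHC class I genes fell almost as a whole list. Of 23 tested 20 fell and 0 rose, with a median of -0.94. B2m was at 2838, 2152, 2561 and 3342 CPM in WT and at 1145, 1445, 1318 and 1281 CPM in Apc, the shared light chain, with no overlap (log2 fold change -1.07, SE 0.18, adjusted p = 0.000513). H2-K1, a heavy chain, was at 2420.3, 1651, 2153 and 2677 CPM in WT and 826, 1051, 984 and 998 CPM in Apc (log2 fold change -1.21, SE 0.17, adjusted p = 0.000142), and Tap2, a peptide pump, fell by 1.14. H2 genes resemble each other, so reads of single members are uncertain. Class II genes had 2 of 12 that fell (6 without WT replicate 3 and 5 from the 8 libraries alone), Ctss (-0.60) and Ifi30 (-0.53), and 0 that rose. Cd74, the invariant chain, was at 1456, 681, 405 and 1988 CPM in WT and 555, 561, 762 and 531 CPM in Apc, overlapping (-0.91, adjusted p = 0.0973), and passed the test without WT replicate 3 (-1.19, adjusted p = 0.0225).

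Interferon-stimulated genes fell in 20 of 38 cases and rose in 0, but that count was 12 without WT replicate 1 or Apc replicate 2, 13 without Apc replicate 4 and 9 scaled by library totals alone. Irf1, a transcription factor that interferon gamma induces, was at 291, 205, 285 and 293 CPM in WT and 155, 141, 151 and 128 CPM in Apc (log2 fold change -0.90, SE 0.14, adjusted p = 0.000249). Gbp2, a guanylate-binding protein, was even across WT: Gbp2 was at 46.8, 46.8, 42.2 and 49.4 CPM in WT and at 18.6, 14.9, 18.6 and 11.1 CPM in Apc (log2 fold change -1.55, SE 0.25, adjusted p = 0.000294). Igtp, an immunity-related GTPase, was not even, with 139, 37.5, 30.1 and 103 CPM in WT and 33.6, 27.6, 24 and 29.5 CPM in Apc (log2 fold change -1.43, SE 0.39, adjusted p = 0.00829). Its Apc values overlapped WT replicate 3.

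Lymphocyte markers were lower in Apc while the spread among WT libraries was wide. Of 27 intraepithelial and cytotoxic lymphocyte markers 20 fell (13 without WT replicate 4) and 0 rose. Their summed level was 223 to 690 CPM in WT and 132 to 206 CPM in Apc. Gzma, a granule protease, was at 173, 99.6, 67.2 and 217 CPM in WT and 40.3, 41, 53 and 31.7 CPM in Apc (log2 fold change -1.75, SE 0.30, adjusted p = 0.000495). Cd3e, part of the T cell receptor complex, fell by 1.47 and Ccl5, a chemokine of effector cells, by 1.83. Epithelial signals that hold such cells also fell, in 12 of 19 cases against 1 that rose (0 without any 1 of WT replicates 1 and 2 and Apc replicates 3 and 4). The member that rose, Raet1e, was not tested in the fit of the 8 libraries alone. Btnl1 was at 409, 403, 440.2 and 513 CPM in WT and 283, 304, 279 and 244 CPM in Apc (log2 fold change -0.67, SE 0.13, adjusted p = 0.00122), Il15 fell by 0.80 and Il18 by 1.34. The part of lymphocyte RNA in the changes of MHC and interferon genes was not tested.

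Macrophage and dendritic cell markers had 15 of 24 that fell (9 without WT replicate 1 and 7 scaled by library totals alone) and 0 that rose, at a summed level of 553 to 1174 CPM in WT and 459 to 552 CPM in Apc. Adgre1, or F4/80, fell by 0.99 (adjusted p = 0.0031) and C1qa, a complement chain made by macrophages, by 0.86 (adjusted p = 0.00212). For B cells, plasma cells and IgA transport 5 of 18 fell (3 without any 1 of WT replicate 1 and Apc replicates 1, 2 and 4, and 2 with library totals) and 1 rose. The share that fell, 27.8%, was near the 24.1% of all genes tested. Pigr, the epithelial receptor that carries IgA into the lumen, was at 5468, 4102, 4245 and 7013 CPM in WT and 1436, 1725, 2391 and 1568 CPM in Apc (log2 fold change -1.55, SE 0.31, adjusted p = 0.00123). Sdc1, which marks plasma cells and also epithelium, rose by 1.03. Neutrophil, mast cell and eosinophil markers had 2 of 8 that fell (1 scaled by library totals alone), 25% against 24.1% of all genes tested. Mcpt1, a mucosal mast cell protease, gave -0.28 (adjusted p = 0.576).

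Complement genes had 11 of 18 that fell and 1 that rose. C3, the central component, was at 652, 389.7, 557 and 547 CPM in WT and 102, 17.2, 86.5 and 117 CPM in Apc, where replicate 2 was lowest (log2 fold change -2.74, SE 0.48, adjusted p = 0.000565). C1s1, a protease of the classical pathway, was at 62.8, 43.2, 37.8 and 50.2 CPM in WT and 16.9, 21.1, 17.8 and 17.7 CPM in Apc (log2 fold change -1.40, SE 0.17, adjusted p = 5.6e-05). Cfi, the protease that degrades C3b, was the member that rose, from 3.25, 4.91, 3.99 and 2.8 CPM in WT to 32.8, 16.3, 25.6 and 38.5 CPM in Apc (log2 fold change 2.91, SE 0.26, adjusted p = 1.02e-05).

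Antimicrobial lectins of the Reg family did not follow 1 direction. Reg1 was at 850.4, 354, 254 and 734 CPM in WT and at 17.2, 16.9, 23.7 and 38.4 CPM in Apc (log2 fold change -4.51, SE 0.73, adjusted p = 0.000336). Reg3a was at 284, 319, 378 and 266 CPM in WT and 42.3, 49.9, 39.4 and 7.32 CPM in Apc (log2 fold change -3.17, SE 0.87, adjusted p = 0.00865); without Apc replicate 4, the lowest, its change was -2.83 (adjusted p = 0.0225). Reg3b ranged widely in Apc. Reg3b was at 1064, 1039, 2412 and 3124 CPM in WT and at 13764, 924, 6471 and 821 CPM in Apc; it did not pass the test (1.52, adjusted p = 0.118) except without Apc replicate 2 (0.0488) or 4 (0.048). Reg3g gave 0.77 (adjusted p = 0.443) and Reg4 0.03 (adjusted p = 0.877). In all 2 of 6 fell and 0 rose, and the Reg3 genes are close copies.

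Markers of non-epithelial tissue, where the villin promoter does not drive Cre, differed by list. Against 24.1% of all genes tested, the share that fell was 73.7% for neurons and glia and 66.7% for smooth muscle. It was 36.8% for endothelial markers and 25% for fibroblast and matrix genes, the last near the share of all genes. Enteric neuron and glia markers had 14 of 19 that fell (9 scaled by library totals alone), smooth muscle and pericyte markers 10 of 15 (6), fibroblast and matrix genes 7 of 28 (11 without WT replicate 3) and endothelial markers 7 of 19 (3 with library totals). Their summed levels were 129 to 153 CPM in WT and 74.8 to 94.6 CPM in Apc for neurons and glia, 2791 to 4312 CPM in WT and 2179.5 to 2552 CPM in Apc for smooth muscle and 1949 to 3457 CPM in WT and 1697 to 2375 CPM in Apc for fibroblasts. Uchl1, a neuronal hydrolase, was at 11.2, 12.9, 13.1 and 12.8 CPM in WT and 6.95, 7.16, 6.58 and 5.5 CPM in Apc (log2 fold change -0.93, SE 0.13, adjusted p = 0.000141). Myh11, smooth muscle myosin, fell by 0.72, Dcn, a fibroblast proteoglycan, by 0.70, and Cldn5, an endothelial claudin, by 1.80. Col1a1 gave -0.01 (adjusted p = 0.977) and Pdgfra -0.06 (adjusted p = 0.763). Among endothelial genes Sox17 and Prox1 rose, by 2.15 and 2.51, and both are also expressed in crypt epithelium or endoderm. Prox1 was at 3.56, 2.85, 3.33 and 2.55 CPM in WT and at 16.2, 19.3, 26.1 and 8.3 CPM in Apc.

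Markers of position along the gut did not shift as 1 block. Proximal markers had 11 of 17 that fell and 2 that rose, the latter being Cybrd1 and Slc40a1, and distal markers had 4 of 15 that fell and 1 that rose (2 without WT replicate 1 or Apc replicate 2, or scaled by library totals alone). Onecut2, a proximal factor, gave 0.06 (adjusted p = 0.899). Of 8 colon markers 2 rose (1 without any 1 of WT replicates 1 and 2 and Apc replicates 1 and 4) and 5 fell. Aqp4, a water channel also found in small intestinal crypts, was at 16, 17.9, 8.73 and 6.34 CPM in WT and 67.1, 60.8, 73.3 and 43.6 CPM in Apc (log2 fold change 2.31, SE 0.29, adjusted p = 5.67e-05), and Aqp8, a water channel of surface cells, fell to 0, 0.314, 0 and 0.259 CPM from 3.95, 2.14, 2 and 4.04 CPM in WT (adjusted p = 0.00101; log2 fold change -4.17, and -4.79 without Apc replicate 2). Over the 17 proximal markers, the mean centred log2 CPM was -0.62, -0.0068, -0.36 and 0.034 in Apc. Their summed level was highest in Apc replicate 2, at 12676 CPM against 10049 CPM in replicate 4. Single genes did not all follow the list: Cybrd1, Slc40a1 and Slc11a2, which are most active in duodenum, were highest in Apc replicate 4. Anpep, an aminopeptidase, was lowest there, with 1949, 1704, 2370.4 and 594 CPM in Apc against 3451, 3622, 5067 and 4438 CPM in WT, and its change of -1.32 was not called without WT replicate 3 (adjusted p = 0.0227, and 0.0521 without it).

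**Figure D4:**
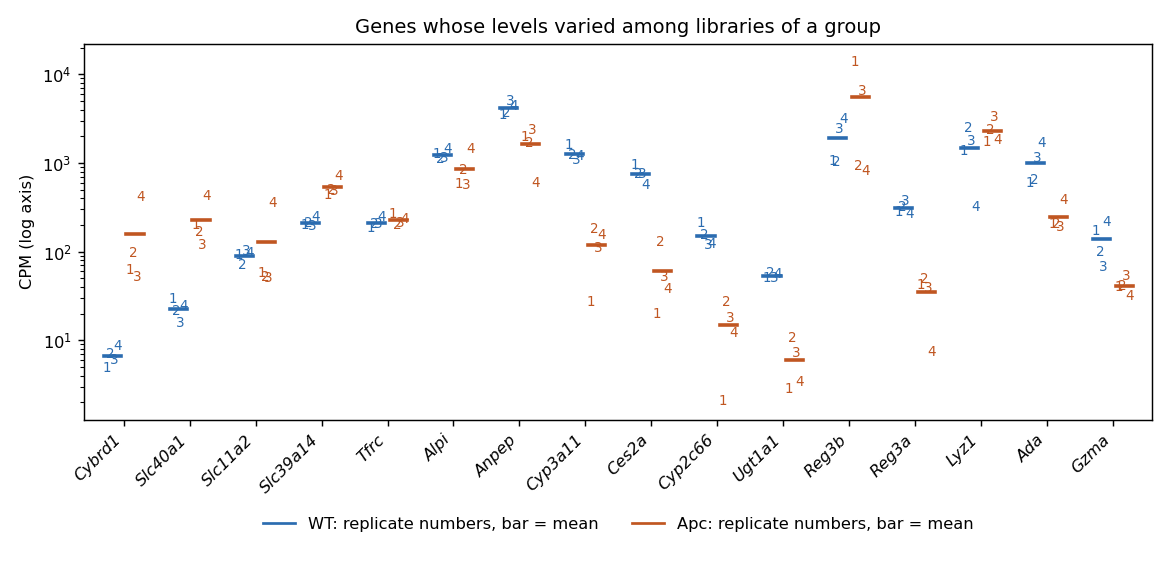
CPM on a log axis for genes that varied among the libraries of a group, each digit being a replicate number (WT blue, Apc orange) and each bar a group mean. Apc replicate 4 stands high for Cybrd1, Slc40a1, Slc11a2 and Alpi and low for Anpep and Reg3a, Apc replicate 1 stands low for Cyp3a11, Ces2a and Cyp2c66, and WT replicate 4 stands low for Lyz1.

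Seen by library, the stem cell and mitosis lists separated the groups by a wide gap and interferon genes by a narrow one. Centred scores of crypt base stem cell markers were -1.11 to -0.538 in WT and 0.729 to 0.886 in Apc. For mitosis genes they were -0.926 to -0.399 and 0.428 to 0.84, with Apc replicate 2 lowest of the Apc libraries. Interferon-stimulated genes scored 1.10, -0.14, -0.22 and 0.54 in WT and -0.389 to -0.28 in Apc. Of the WT libraries, replicate 1 was highest in B cell (1.33), macrophage (0.86) and interferon genes, and replicate 3 was lowest in lymphocyte (-0.31) and macrophage genes (-0.29) and highest in villus tip genes (0.88). Paneth cell genes scored -1.60 in WT replicate 4 and -0.52 to 0.17 in the other WT libraries.

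**Figure D5:**
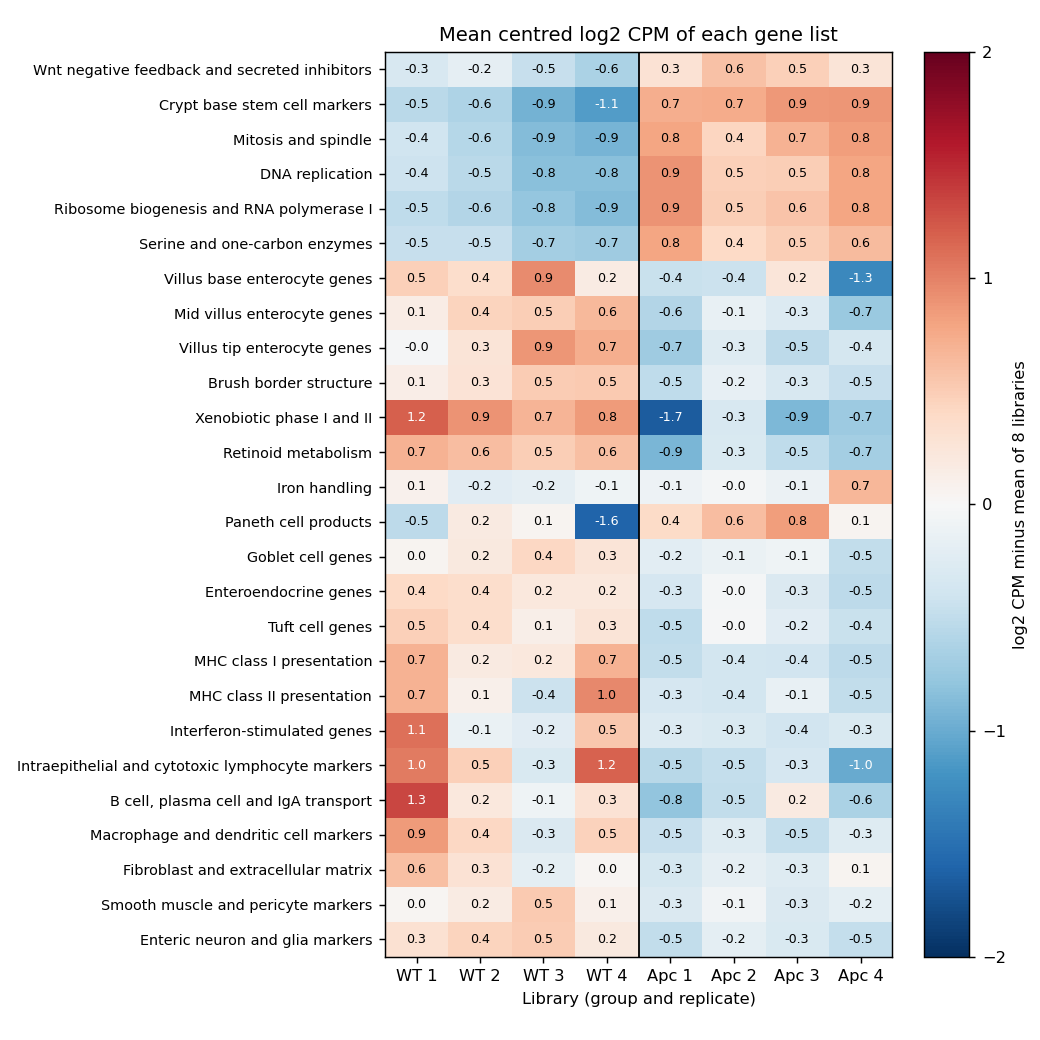
Heat map of gene lists (rows) in the 8 libraries (columns, WT left and Apc right); each cell is the mean over members of log2 CPM minus the gene's mean of 8 libraries. Stem cell, cell cycle and biogenesis rows change sign between the groups in every library, whereas interferon, class II and lymphocyte rows vary within WT.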

How the data were processed

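RNA from 12 small intestine libraries was sequenced, and the authors deposited whole-number counts per Ensembl gene for 55421 genes. Per the submitters' processing notes, FastQC 0.11.8, Trim Galore 0.6.4, HISAT2 2.1.0, featureCounts 1.6.4 and the GRCm38 build were used. The sources used here do not give their settings, the annotation release, strand handling or the treatment of reads with several matches, so reads of close copies and of overlapping genes may be split or mixed.

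Counts were tested as deposited in R 4.3.3 with edgeR 4.0.16 and limma 3.58.1, with filterByExpr by group (17394 genes left) and TMM factors. In the quasi-likelihood fit (glmQLFit, then glmQLFTest) each of the 3 groups of the 12 libraries had its own mean. The third group thus took part in the filter, the TMM factors and the estimate of the spread. From the 8 libraries alone 16854 genes passed the filter. Genes were called at a Benjamini-Hochberg adjusted p below 0.05 over all genes tested. The standard error (SE) was approximated as the size of the log2 fold change over the square root of F. CPM values use TMM factors. Centred scores average log2 CPM with a prior count of 2. Symbols come from GENCODE M21.

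The members and the 73 gene lists (1522 genes, 1425 tested, 7 symbols unmatched and 7 matched through synonyms) were chosen with earlier results of these data known. Named genes were Apc, the 20 highest and 20 lowest separated changes with a mean log2 CPM of 1 or more, the 15 smallest p-values, the defining members of each list, its called members with the smallest p, those of its rarer direction, genes at 0 counts in 1 group and 10 or more in each library of the other, called genes with the largest spread within a group, and all members of lists with 8 or fewer tested. The text uses part of these 532 genes.

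Other scalings, DESeq2 1.42.0, no filter on low counts, the 8 libraries alone, sex as a covariate, the replicate number as a block, removal of mitochondrial genes and leaving out each library were tried. The fit was tested on simulated data. Replicates of each group differed by more than sampling noise. Total counts of 10483112 to 18621953 per library limit the precision of genes at low counts.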

Additional observations from a re-analysis of the deposited data

Results flagged for a closer look

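A library that stood apart from the other 3 of its group was looked for in 576 sets of 4 values, by Dixon's ratio of gap to range. There was 1 set for each group and each gene named here except Lrig3 and Errfi1, and 21 sets held 1 such library. Chance alone gives about 1 in 20 sets, a larger share than was found here. A large spread within a group was also 1 of the rules by which genes were named. Apc replicate 1 stood below the others with 13.1 CPM of Dvl2 (other 3 libraries 15.7 to 16). Apc replicate 2 stood above the others with 94.4 CPM of Ndufa1 (74.4 to 77.6) and 31 CPM of Slc28a1 (14.8 to 16.9) and stood below the others with 14.1 CPM of Etv5 (16.4 to 16.8) and 148 CPM of Mki67 (183 to 184). Apc replicate 3 stood above the others with 762 CPM of Cd74 (530.5 to 561) and stood below the others with 8.59 CPM of Cela1 (13.5 to 13.9) and 46.1 CPM of Fbl (58.3 to 60.6). Apc replicate 4 stood above the others with 379 CPM of Ada (192 to 207), 418 CPM of Cybrd1 (51.8 to 96), 25 CPM of Hbb-bs (7 to 8.59), 169 CPM of Onecut2 (85.4 to 97.2), 19.5 CPM of Piwil2 (5.06 to 5.7) and 357 CPM of Slc11a2 (51.1 to 57.4). WT replicate 1 stood below the others with 11.2 CPM of Uchl1 (12.8 to 13.1). WT replicate 2 stood above the others with 31.3 CPM of Bmf (24.4 to 25.1) and stood below the others with 205 CPM of Irf1 (285 to 293). WT replicate 3 stood above the others with 34.5 CPM of Bmp2 (17.7 to 18.8), 119 CPM of Cdkn2b (72 to 76.9) and 40.3 CPM of Fzd7 (25.7 to 27.1) and stood below the others with 1.83 CPM of Ephb6 (2.31 to 2.35). Apc replicate 4 held the most of these genes, among them the iron genes Cybrd1 and Slc11a2 and the proximal factor Onecut2, each on the high side. As fewer sets stood apart than chance alone gives, no pattern by library is read from them. The stretch of intestine behind each library is not given in the labels, and its part in these values was not tested.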

How the results depend on the processing

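Against 4820 genes that rose and 4192 that fell, the counts were 4627 and 4331 with DESeq2 size factors, 4740 and 4225 by the DESeq2 Wald test, 4698 and 3790 with no filter on low counts, 4893 and 4306 from the 8 libraries alone, 4776 and 4142 with sex as a covariate and 4811 and 4184 without mitochondrial genes. Leaving out 1 library at a time gave 4307 to 4723 that rose and 3519 to 4037 that fell. Library totals as the only scaling gave 6817 and 2393, and the cause was not tested. Under that scaling the list medians turned to 0.00695 for R-spondins and Wnt receptors, 0.0905 for glycolysis, 0.12 for iron genes, 0.038 for tight junctions and 0.0496 for the unfolded protein response. With 1 library left out, the iron median ran from -0.437 (without Apc replicate 4) to 0.0591 (without WT replicate 1), the haemoglobin median from -0.35 (without Apc replicate 4) to 0.492 (without Apc replicate 2) and the change of Slc11a2 from -0.757 (without Apc replicate 4) to 0.785 (without Apc replicate 3). With the replicate number as a block, the counts were 4681 and 4078. The deviations of same-numbered WT and Apc libraries from their group means correlated at -0.142, 0.0334, -0.117 and -0.0623 across genes. No library correlated best with its own number, so the number was not taken as a pairing. Over the 532 named genes and these alternatives, 8494 fold changes were recomputed: 8097 kept their call, 331 lost a call and 64 gained one. Another 2 turned sign with a call in the main fit or the alternative: Slc11a2 as above, and Crebbp, a coactivator, from -0.199 to 0.0328 with library totals. In all, 101 genes had at least 1 of these changes. A turn of sign with no call in either fit was counted as kept, such as Clu at -0.139 without Apc replicate 4. Genes at a few counts, such as Gulo in WT, have fold changes that depth limits.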

Other observations

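Immediate early genes, which tissue handling is known to induce, did not move as a list: 3 of 17 rose (1 without any 1 of WT replicates 2 and 4 and Apc replicate 4, and 5 scaled by library totals alone) and 2 fell. Beside Egr1, Nr4a1, a nuclear receptor, was at 5.19, 4.98, 6.16 and 3.13 CPM in WT and 9.08, 8.68, 9.9 and 13.6 CPM in Apc (log2 fold change 1.09, SE 0.37, adjusted p = 0.0265), a call lost without WT replicate 2 (adjusted p = 0.0525), WT replicate 4 (0.0769) or Apc replicate 4 (0.0788). Hspa1b, a heat shock protein, had an adjusted p of 0.0483, which ranged from 0.0576 to 0.152 in the 8 alternatives where it was not called. Those that fell were Zfp36, which degrades short-lived messages, at 192, 198, 283 and 237 CPM in WT and 129.9, 149, 117 and 116 CPM in Apc (log2 fold change -0.83, SE 0.18, adjusted p = 0.00225), and Klf6, a zinc finger factor, by 0.53 (adjusted p = 0.00846, and 0.0708 scaled by library totals alone).

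Most genes of pancreas and blood were low. Of 15 pancreatic acinar genes 4 passed the filter on low counts and 1 fell, Zg16, which goblet cells also make: Zg16 was at 2357, 2712, 4127 and 3799 CPM in WT and at 1342, 1649, 1148 and 874 CPM in Apc (log2 fold change -1.37, SE 0.25, adjusted p = 0.000742). Cela1, an elastase, was at 10.3, 9.4, 11.8 and 10.3 CPM in WT and 13.9, 13.5, 8.59 and 13.8 CPM in Apc (adjusted p = 0.225, and 0.0325 without Apc replicate 3 or 0.0213 scaled by library totals alone). Haemoglobin genes summed to 12.4 to 17.6 CPM in WT and 10.8 to 37.7 CPM in Apc, and 0 of 5 rose and 0 fell. Hbb-bs was at 9.53, 10.7, 7.9 and 11.5 CPM in WT and at 7.75, 7, 8.59 and 25 CPM in Apc, the highest being Apc replicate 4 (adjusted p = 0.577). Both edgeR and the DESeq2 Wald test called 0 of the 5, and 0 had an unadjusted p below 0.05 in edgeR.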
